A study of Mus musculus with 38 samples.

Results

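The B cell genes described here were 7 genes of B lymphocytes, namely Cd79a, Cd79b, Ms4a1, Cr2, Blk, Pax5 and Fcer2a. They were taken as every non-control probe of the array whose gene name in the files is one of these symbols, which gave 8 of 40628 probes and 7 of 29411 gene names. Cr2 had 2 probes and the other genes 1 each. Their RNA was measured on 38 one-colour arrays of stromal vascular cells from the epididymal fat of C57BL/6J mice. The labels also call these cells infiltrating macrophages. Stromal vascular cells are those left when the adipocytes are removed from fat, but adipocyte transcripts were also present, as given below. LFC (10 arrays) was a low fat control diet with 10% of calories from fat, and HFC (10 arrays) was a high fat, high sucrose control diet with 60% of calories from fat. HF5, HF20 and HF75 (6 arrays each) received that high fat diet supplemented with 5, 20 or 75 µg of KAL-1, a botanical formulation. LFC and HFC were measured on days 6, 10 and 14 (D6 to D14) and at weeks 0, 3, 6, 9, 12, 15 and 18 (W0 to W18), and the formulation diets from W3. The mice entered the diets at 3 to 4 weeks of age. There was 1 array for each diet and time point, and the labels do not say whether it held 1 mouse or a pool. Differences were therefore set against the spread over time points or diets, and p-values measure only that spread.

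B cells recognise antigen with the B cell receptor, a membrane immunoglobulin that signals through the paired chains Cd79a and Cd79b and then through Src family kinases such as Blk. Ms4a1 encodes CD20, a surface protein of mature B cells. Cr2 encodes complement receptor 2 (CD21), which lowers the threshold of the B cell receptor for antigen coated with complement, and which follicular dendritic cells also carry. Fcer2a encodes CD23, the low affinity IgE receptor, which marks follicular B cells. Pax5 is the transcription factor that holds B cells in their lineage, and plasma cells switch it off. B cells are found in epididymal fat and in the lymphoid clusters and lymph nodes that lie in and near fat.

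Each probe was a 60-base oligonucleotide. The pair of Cr2 probes is shown first because they gave different values for 1 gene, and their longest shared run was 5 bases. The Cd79a, Blk and Pax5 probes follow because these 3 genes lay near the background of the arrays. All are printed 5′ to 3′ as the array files give them, in lower case with no stretch marked.
Cr2, first probe: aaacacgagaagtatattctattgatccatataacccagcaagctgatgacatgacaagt
Cr2, second probe: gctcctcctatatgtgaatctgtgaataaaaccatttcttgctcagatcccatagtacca
Cd79a: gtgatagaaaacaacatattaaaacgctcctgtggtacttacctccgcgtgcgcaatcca
Blk: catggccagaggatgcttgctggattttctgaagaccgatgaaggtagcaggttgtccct
Pax5: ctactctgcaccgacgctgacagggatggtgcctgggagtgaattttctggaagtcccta

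The level used throughout is the log2 processed signal of a probe minus the log2 75th percentile of its array, so that 0 is the brightness of the 75th percentile probe. Levels of different probes cannot be set against each other, since probes bind with different strength, and each gene is compared with itself. HF5 W12 was the dimmest array, with a 75th percentile of 25.8 scanner units, HFC W0 the brightest with 1980, and the 5 arrays of W6 had 901 to 1286. Between 40.1% and 90.6% of probes were well above background on an array, and between 65.7% and 71.3% at W6. On a dim array a probe at background has a raised level, which touches the values of HF5 W12 and HF75 W3 below. HF75 W3 had a 75th percentile of 88.2 scanner units, with 46.3% of probes well above background. The macrophage list (12 genes, among them Emr1, Cd68 and Csf1r) had a mean level between -0.01 and 3.74 over the weeks other than W6 and between 1.40 and 2.69 at W6, so macrophage transcripts were present. In such bulk samples, fewer cells of a type and less RNA per cell cannot be told apart. The 38 arrays were scanned on 14 days, and no scan day held more than 1 time point, so time point and scan day cannot be told apart.

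All 7 genes had their highest mean level at W6 among the 6 weeks from W3 on. The share of all probes that did so was not counted. No member probe was saturated on any array. Cd79b, the signalling chain that pairs with Cd79a, had levels at W6 of 3.76 in LFC, 4.70 in HFC, 4.84 in HF5, 3.45 in HF20 and 3.16 in HF75. Over the other weeks (W3, W9, W12, W15 and W18, 25 arrays) its lowest level was -2.61, the median -0.26 and the highest 2.36. The groups did not overlap, and Cd79b was well above background on all 38 arrays. W6 was higher by 4.12 on the log2 scale (SE 0.76, limma adjusted p = 0.0028), a 17.4-fold difference.

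Cd79a, its partner chain, had much dimmer values. At W6 its levels were -3.66 in LFC, -2.66 in HFC, -2.75 in HF5, -4.28 in HF20 and -3.56 in HF75, and it was well above background on all 5 arrays. In the other weeks the levels ran from -7.94 to -3.88 with a median of -5.45, and 3 of 25 arrays reached the lowest W6 value, which was that of HF20. The difference was 2.30 (SE 0.70, limma adjusted p = 0.0571), which did not pass the threshold of 0.05. A pair of further probes, of identical sequence and named Gm2344 and LOC100047815 in the files, is described there as predicted genes similar to CD79A. These are no members by name, and they share no run longer than 6 bases with the Cd79a probe. They were well above background on all 38 arrays and were higher at W6 by 3.49 (SE 0.77, limma adjusted p = 0.00957) and 3.79 (SE 0.73, limma adjusted p = 0.00365). The 2 spots of 1 sequence differed by a median of 0.08 on the log2 scale and at most by 2.57, on LFC W18, which gives a measure of technical error.

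Ms4a1, the gene of CD20, had levels at W6 of 2.64 in LFC, 3.20 in HFC, 3.42 in HF5, 1.91 in HF20 and 2.71 in HF75. In the other weeks the levels ran from -3.50 to 2.51 with a median of -0.33. HF5 and HF20 of W9 and HFC of W18, at 2.51, 2.36 and 2.22, lay above the lowest W6 array. The difference was 3.31 (SE 1.0, limma adjusted p = 0.0567), so Ms4a1 did not pass the threshold.

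Fcer2a and Cr2 encode receptors of follicular B cells. Fcer2a had levels at W6 of 0.84 in LFC, 1.68 in HFC, 1.68 in HF5, 0.63 in HF20 and -0.48 in HF75. In the other 25 arrays the levels ran from -7.83 to -3.73 with a median of -5.48, and 15 of these arrays were well above background. The lowest W6 array stood 3.25 above the highest array of any other week. The difference was 6.46 (SE 0.72, limma adjusted p = 1.26e-05). Since many arrays of the other weeks were near background, its size depends on how background is treated, and it was 3.14 with normexp background correction.

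Cr2 by its first probe had levels at W6 of -0.23 in LFC, 0.68 in HFC, 0.30 in HF5, -0.27 in HF20 and -0.57 in HF75. In the other weeks the levels ran from -8.31 to -3.51 with a median of -5.75, and the gap between the groups was 2.93. Of these 25 arrays, 13 were well above background. The difference was 5.83 (SE 0.91, limma adjusted p = 0.000506). The first probe was well above background on all 5 arrays of W15 and on no array of W18. The second Cr2 probe had W6 levels of -4.73 in LFC, -4.33 in HFC, -4.29 in HF5, -4.90 in HF20 and -6.08 in HF75, the last not well above background. Its other weeks ran from -8.12 to -3.0 with a median of -6.16 over the 23 arrays that have a value, and 10 of them reached the lowest W6 value. Its difference was 1.31 (SE 0.88, limma adjusted p = 0.434). The Cr2 probes thus disagreed in size, and their levels had a Pearson r of 0.40 over 36 arrays, a description with no test.

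Blk and Pax5 were close to background outside W6. Blk, a Src family kinase of B cells, had W6 levels of -3.09 in LFC, -1.89 in HFC, -1.90 in HF5, -3.45 in HF20 and -2.84 in HF75. Its other weeks ran from -8.34 to -1.60 with a median of -6.62. The highest of these was HF5 of W12, which was not well above background. The probe was marked as an outlier spot on HFC and HF75 of W12, and these 2 arrays have no value for it or for the second Cr2 probe. The difference for Blk was 3.68 (SE 1.03, limma adjusted p = 0.0402). Pax5 had W6 levels of -4.05 in LFC, -3.68 in HFC, -3.27 in HF5, -5.17 in HF20 and -5.68 in HF75, with a difference of 2.66 (SE 0.75, limma adjusted p = 0.0396). In the other weeks its levels ran from -8.47 to -3.94 with a median of -7.23, and 4 arrays reached the lowest W6 value. Among these were HF5 of W12 and HF75 of W3, both dim arrays on which Pax5 was not well above background. Pax5 was well above background on 5 of 5 arrays of W6, 4 of W12, 2 of W15 and 1 of W18, but on no array of W3 or W9. Blk was so on 5 of 5 arrays of W6, 4 of W15, 2 of W18, 1 of W9 and 1 of W12, but on none of W3.

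**Figure D1:**
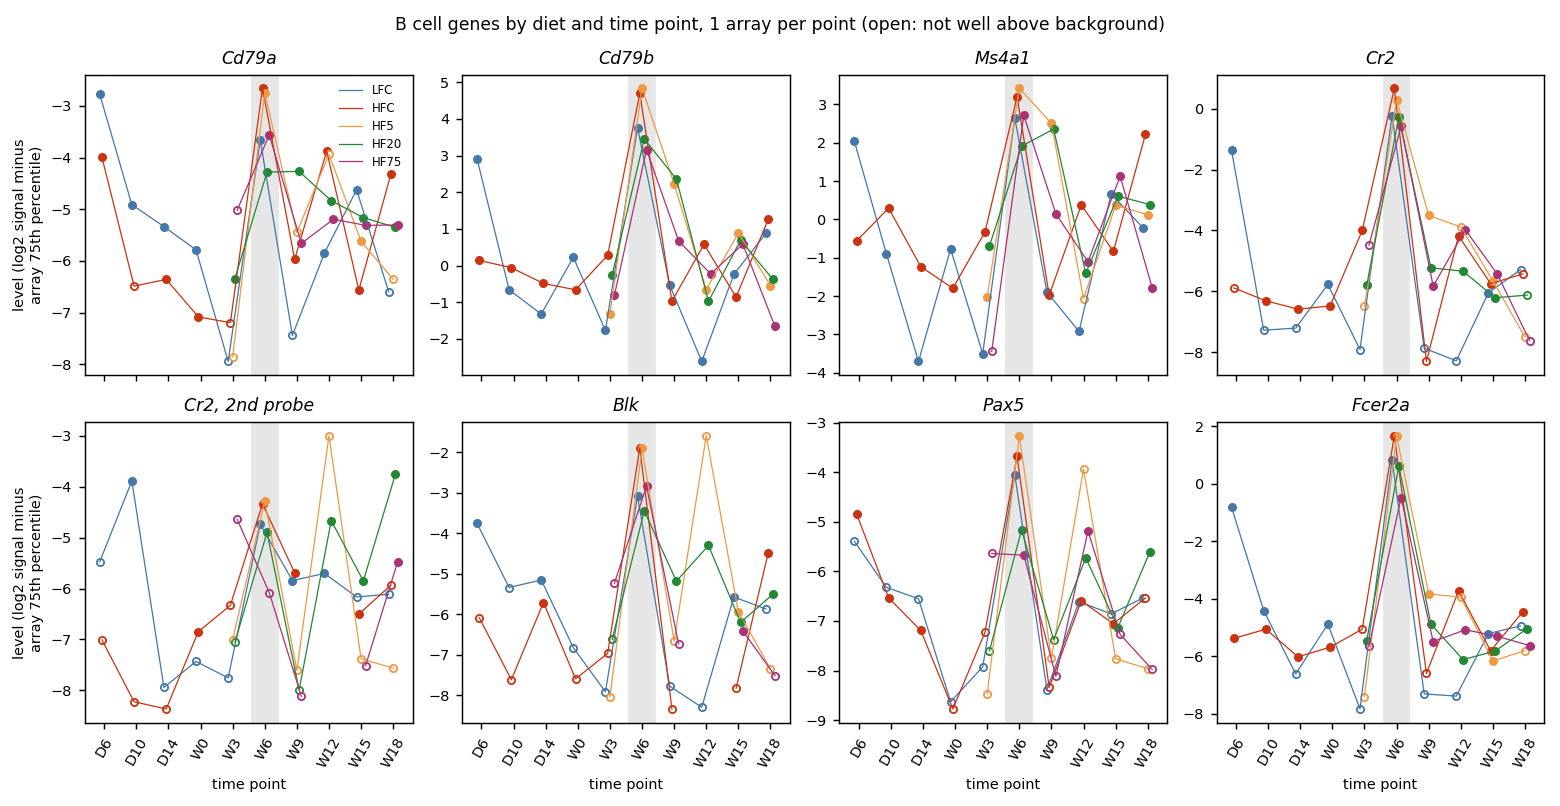
Level of each member probe (y axis, log2 signal minus the array's 75th percentile) against time point (x axis), with 1 array per point and colours for the 5 diets; open points were not well above background and the grey band marks W6. Cd79b, Fcer2a and the first Cr2 probe were higher on all 5 arrays of W6 than on any array of W3, W9, W12, W15 or W18. The share of all probes without such overlap was not counted. LFC D6 was the highest array outside W6 for these 3 probes.

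By week, the mean level of Cd79b over the 5 diets was 3.98 (SD 0.75) at W6, 0.75 (SD 1.53) at W9, 0.21 (SD 0.74) at W15, -0.09 (SD 1.17) at W18, -0.78 (SD 0.82) at W3 and -0.78 (SD 1.18) at W12. For Ms4a1 the order was W6 with 2.78 (SD 0.58), W15 with 0.39 (SD 0.74), W9 with 0.23 (SD 2.18), W18 with 0.15 (SD 1.44), W12 with -1.42 (SD 1.23) and W3 with -2.0 (SD 1.49). Fcer2a was at 0.87 (SD 0.89) at W6 and between -6.28 at W3 and -5.17 at W18 in the other weeks. For Cd79b and Fcer2a, the arrays of W6 lay above those of every other week. For Ms4a1 the lowest W6 array, at 1.91, lay under the highest arrays of W9 (2.51) and W18 (2.22). The ranges of neighbouring weeks below W6 overlapped for all 3 genes. Over D10, D14 and W0, measured in LFC and HFC alone, Cd79b ran from -1.32 to 0.23, Ms4a1 from -3.70 to 0.29, Fcer2a from -6.61 to -4.41 and the first probe of Cr2 from -7.28 to -5.77, each under its W6 range. The higher of the 2 arrays of D6 was at 2.92 for Cd79b, 2.05 for Ms4a1, -0.81 for Fcer2a and -1.36 for the first probe of Cr2, so that for Ms4a1 it lay within the W6 range and for the others under it.

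In the comparison of W6 with the other weeks (30 arrays, diet as a term and week as a random block), 1417 of 34002 probes passed the threshold, or 4.17%, of which 757 were higher at W6 (2.23%) and 660 lower (1.94%). Of the 8 member probes, 5 passed, all higher: Cd79b, the first Cr2 probe, Blk, Pax5 and Fcer2a. The median difference of the 7 genes, each by its brightest probe, was 3.68, beside -0.14 over all probes tested. W6 had the highest mean of the 6 weeks for 7 of 8 probes. The exception was the second Cr2 probe, whose mean was highest at W12. That W12 mean (-4.45) rests on 3 arrays, among them the dim HF5 W12 at -3.0, not well above background. How many of all probes peak at W6, or have W6 arrays above all others, was not counted. These counts and gaps therefore describe the members alone. Over all 34002 probes tested, 6397 had an unadjusted p under 0.05 (limma). The test treats arrays of a week as correlated but W6 is 1 of 6 weeks, and an exact permutation over weeks cannot go below p = 0.167. W6 was set apart with these levels already known, so these p-values are not independent support.

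Within a diet, the W6 array was above each other week in 5 of 5 diets for Cd79b, Fcer2a and the first Cr2 probe, and in 4 of 5 for Cd79a, Ms4a1, Blk and Pax5. For Fcer2a the difference between W6 and the mean of the other weeks ran from 4.95 in HF75 to 7.37 in LFC. For Cd79b it ran from 3.16 in HF20 to 4.72 in HF5. The HF20 and HF75 arrays had the smallest differences for Cd79b, Fcer2a, Cr2, Pax5 and Cd79a, and whether diets differ in this was not tested, since each diet has 1 array at W6. The HF75 array of W6 was also scanned on another day than the other W6 arrays.

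**Figure D2:**
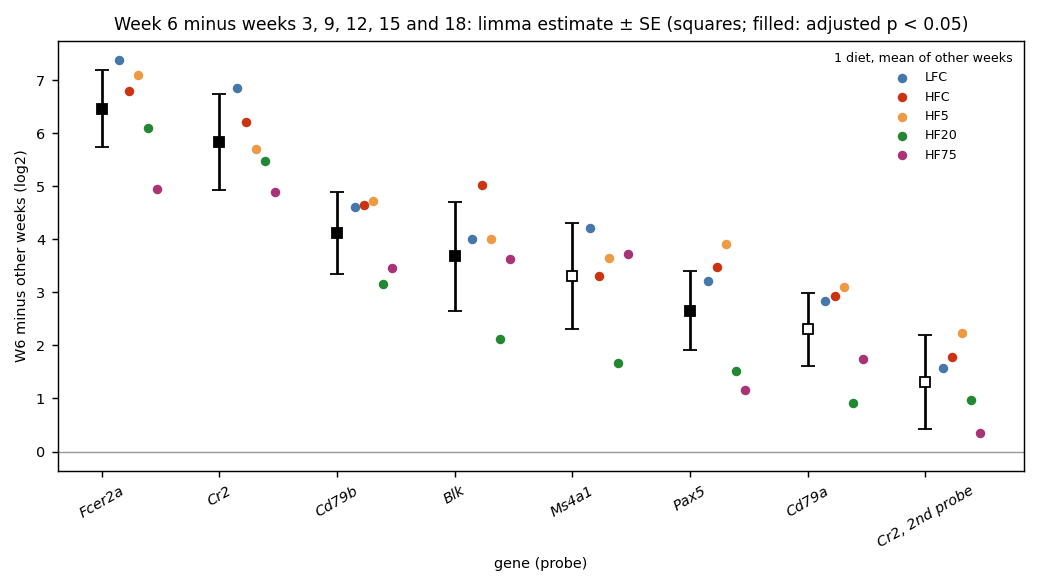
Difference between W6 and the other weeks for each member probe (y axis, log2), with the limma estimate and its SE as squares, filled where the adjusted p passed, and coloured points for single diets (W6 minus the mean of the diet's other weeks). Fcer2a and the first Cr2 probe are at 6.46 and 5.83, above Cd79b at 4.12, an order that turns with normexp background correction (3.14, 2.37 and 3.75), and all 40 diet points lay above 0.

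The calls of Cd79b, Fcer2a and the first Cr2 probe held when any single week or any single W6 array was left out. Those of Blk and Pax5 did not: without HFC of W6, for example, their adjusted p was 0.0973 and 0.098 (limma). With normexp background correction, which adds an offset of 50 scanner units, the difference of Fcer2a was 3.14 (limma adjusted p = 0.0818), that of the first Cr2 probe 2.37 (0.282), that of Blk 0.57 (0.954) and that of Pax5 0.07 (0.988), while Cd79b was at 3.75 (0.000394).

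Outside W6, LFC of D6 had the nearest levels for 4 of the 7 genes. It was the highest of the 33 other arrays for Cd79a (-2.78), Cd79b (2.92), Cr2 (-1.36) and Fcer2a (-0.81). HFC of the same day, scanned on the same day, had -4.0 for Cd79a, 0.14 for Cd79b, -5.89 for Cr2, not well above background, and -5.38 for Fcer2a. Ms4a1 was at 2.05 in LFC and -0.56 in HFC, and Blk at -3.76 in LFC and -6.09 in HFC, the latter not well above background. Pax5 went the other way, with -5.39 in LFC, not well above background, and -4.84 in HFC, which was. For Blk and Pax5 the highest array outside W6 was HF5 of W12, and for Ms4a1 HF5 of W9. The mean level of the 7 genes was -1.30 on LFC D6, between -1.04 and 0.33 at W6, and no higher than -2.86 in the other weeks. With 1 array of each, the difference between the diets at D6 has no replicate check.

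HF5 and HF20 of W9 were the next arrays of note, and their members did not move together. Cd79b was at 2.23 and 2.36 and Ms4a1 at 2.51 and 2.36, while HFC of W9 had -0.98 and -1.98 and LFC of W9 had -0.53 and -1.90. Fcer2a was at -3.83 in HF5 and -4.88 in HF20, and Cr2 at -3.51 and -5.23, far under their W6 levels. HF75 of W9 lay between, with 0.67 for Cd79b and 0.14 for Ms4a1. The 3 dose arrays of W9 were scanned on another day than LFC and HFC of W9, and dose and scan day cannot be told apart there. HFC of W18 had Ms4a1 at 2.22 with Fcer2a at -4.45.

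**Figure D3:**
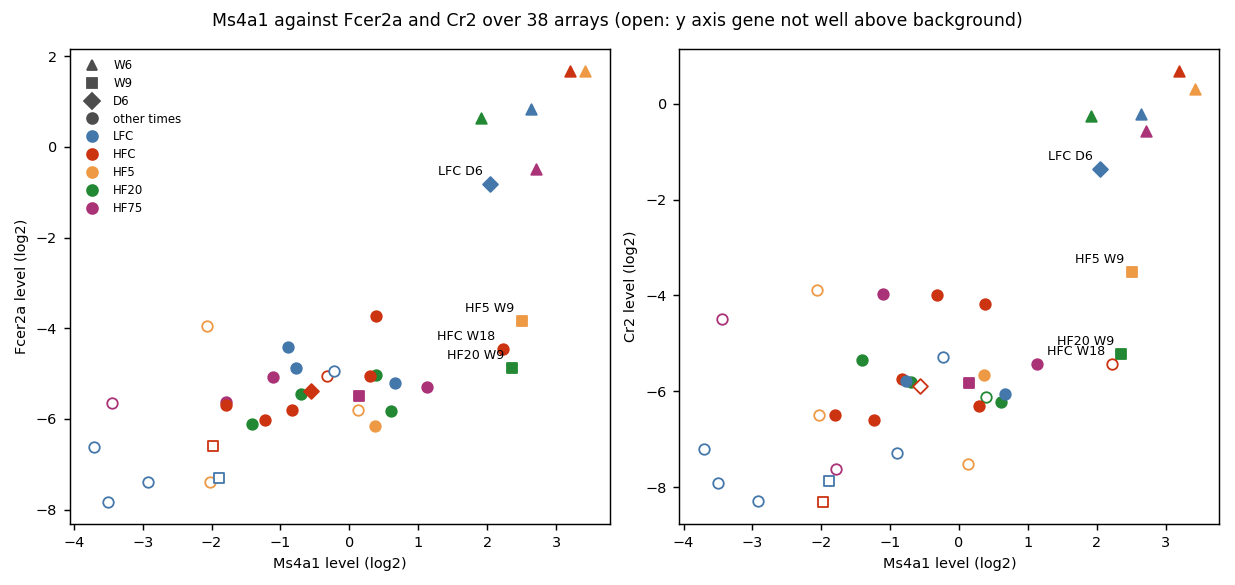
Level of Ms4a1 (x axis, log2) against the levels of Fcer2a and of Cr2, first probe (y axes, log2), with 1 point per array, colours for diets, shapes for time points and open points where the y axis gene was not well above background. The W6 arrays and LFC D6 lie at the upper right, while HF5 W9, HF20 W9 and HFC W18 have Ms4a1 levels of 2.22 to 2.51 with Fcer2a between -4.88 and -3.83.

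Over the 38 arrays, Pearson r was 0.94 between Cr2 and Fcer2a, 0.90 between Cd79b and Ms4a1, and 0.91 between Cd79b and Fcer2a. Without the W6 arrays these were 0.80, 0.87 and 0.73 over 33 arrays. Pax5 and Ms4a1 had r = 0.39, and 0.02 without W6. Near background, levels also follow the brightness of the array, which the points share.

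Other genes of B cells were read from lists. Of 19 further B cell genes, 14 rose at W6, none fell and the median difference was 3.22. Faim3, now named Fcmr, the IgM Fc receptor, was higher by 6.03 (SE 0.77, limma adjusted p = 7.28e-05), and Cd22, an inhibitory co-receptor, by 4.71 (limma adjusted p = 0.000928). Cxcr5, the receptor that guides B cells to follicles, was higher by 4.47 (limma adjusted p = 0.0158). All 19 differences were above 0, and 17 had an unadjusted p under 0.05 (limma). Among the genes that did not pass was the early B cell factor Ebf1, at 0.56 (limma adjusted p = 0.67). Fat progenitors also express Ebf1, and whether this bears on its value was not tested. The others that rose were Cd37, Cd72, Bank1, Vpreb3, Fcrla, Fcrl1, Spib, Pou2f2, Bach2, Tnfrsf13c and Siglecg.

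Of 11 genes of signalling downstream of the receptor, 5 rose: Btk, Plcg2, Prkcb, Vav1 and Ptpn6, by 1.77 to 2.44. These also act in other leukocytes. Syk, the kinase that binds phosphorylated Cd79a and Cd79b, differed by 2.0 (limma adjusted p = 0.16), and Blnk by -0.02. Of 12 immunoglobulin genes listed, 4 were measured and none passed, with a median difference of 1.66. Igh was at 0.11, the J chain gene Igj at 1.01, Ighm at 2.31 (limma adjusted p = 0.152) and Ighg at 2.38 (limma adjusted p = 0.152), the last 2 with an unadjusted p under 0.05. Of 7 plasma cell genes, 1 rose, the transcription factor Irf4, by 2.52 (limma adjusted p = 0.0259). Prdm1, the transcription factor of plasma cell differentiation, was at -0.94 (limma adjusted p = 0.305), and Tnfrsf17, the receptor BCMA, at -0.17. Of 4 B-1 cell genes, Cd5 and Spn rose, by 3.17 and 1.88, and both are also T cell genes. Of 10 class II genes, 1 rose, H2-Oa, by 4.90 (limma adjusted p = 0.00027), a chain of the H2-O protein of B cells, while Cd74 was at -0.20 and H2-Ab1 at 0.60.

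Transcripts of other cells moved with the B cell genes. Of 11 measured genes of lymphoid tissue signals, 4 rose. Glycam1, a ligand for L-selectin made by the high endothelial venules of lymph nodes, was higher by 10.49 (SE 1.11, limma adjusted p = 1.17e-05). Its W6 levels were 3.60 in LFC, 5.25 in HFC, 4.87 in HF5, 3.59 in HF20 and 3.74 in HF75, and it was at 5.29 on LFC D6 and -7.26 on HFC D6. In the other weeks its levels ran from -8.87 to -1.56 over the 23 arrays with a value (HFC and HF75 of W12 have none), and 6 of the 23 were well above background, so the size of this difference rests on levels near background. The 6 arrays with the highest Glycam1 levels, those of W6 and LFC D6, were also the 6 highest for Fcer2a and for Cr2 by its first probe. Ccr7, the receptor for entry into lymph nodes, was higher by 5.51 (limma adjusted p = 0.0028), and the lymphotoxin genes Ltb and Lta by 3.54 and 3.22. Cxcl13, the chemokine of B cell follicles, differed by 1.79 (limma adjusted p = 0.267) and Ccl19 by 0.43 (limma adjusted p = 0.655). The mean level of this list was 0.51 to 1.09 at W6, 1.15 on LFC D6 and at most -0.44 in the other weeks.

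Of 12 T cell genes, 5 rose (Cd3d, Cd247, Cd8a, Cd8b1 and Lck), with a median difference of 2.78 and a list mean of -1.01 to 1.21 at W6, 0.35 on LFC D6 and -4.08 to 0.10 in the other weeks. The skeletal muscle list had none of 7 genes past the threshold, but all 7 differences were above 0, 6 had an unadjusted p under 0.05 and the median was 3.33, near those of the B cell lists. Its mean level was 0.62 to 4.90 at W6, 0.93 on LFC D6, -3.34 on HFC D6 and -3.86 to 4.06 in the other weeks. Of 5 mesothelial genes, Wt1 fell by 4.86 (limma adjusted p = 0.00943), the median difference was -4.10, and the list mean was -5.35 to 0.43 at W6, -5.32 on LFC D6 and -3.30 to 3.10 in the other weeks. None of 5 epididymis genes passed, and their median difference was -3.93. The epididymis mean was -8.66 to -1.26 at W6, -6.82 on LFC D6, 2.49 on HFC D6 and -8.33 to 4.59 in the other weeks. It was also low on LFC of D10 and W0, at -6.48 and -6.93. None of 12 macrophage genes passed, and their median difference was -0.07. The part of these tissues in the B cell gene levels was not tested.

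**Figure D4:**
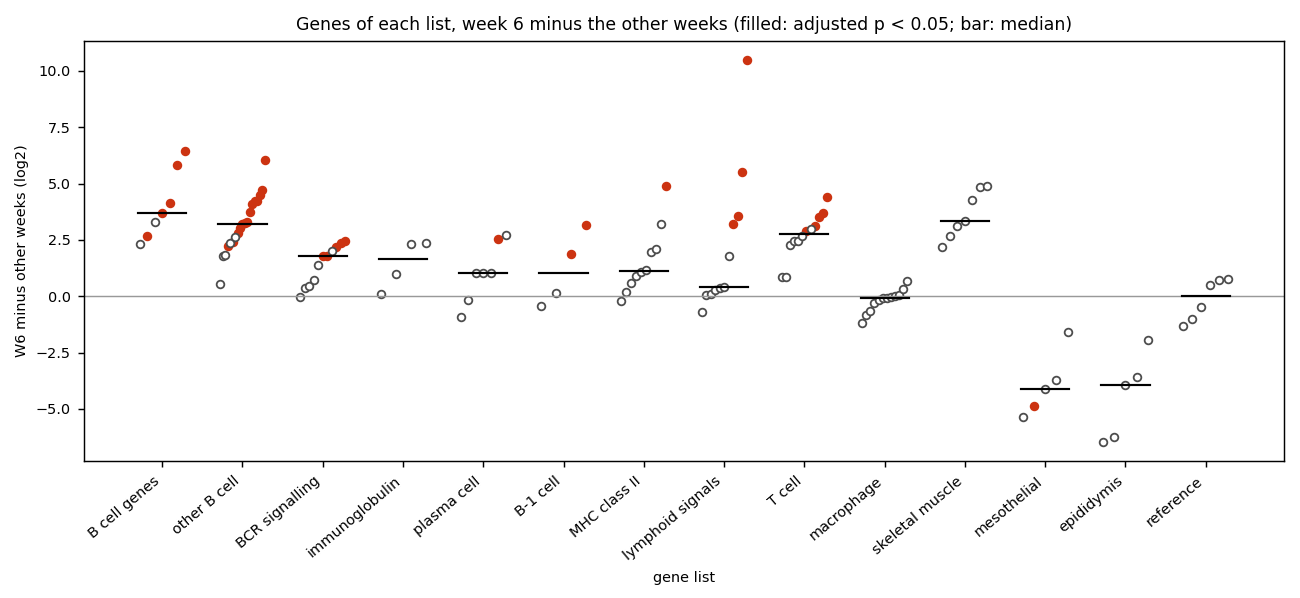
Difference between W6 and the other weeks (y axis, log2) for each gene of 14 lists (x axis), filled where the limma adjusted p passed, with the list median as a bar. The B cell lists sit above 0 with medians of 3.68 and 3.22, the skeletal muscle list has a median of 3.33 with no gene passing, the macrophage list has -0.07, and Glycam1 of the lymphoid signals, near background in most arrays outside W6, is at 10.49.

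High fat feeding by itself was compared with the low fat diet over the 10 time points, with time point as a block. None of 31026 probes passed (0%), 2962 had an unadjusted p under 0.05, and the smallest limma adjusted p was 0.52. None of the 6 member probes tested passed, and Blk and the second Cr2 probe were not well above background often enough to be tested. Ms4a1 differed by 0.79 (SE 0.59, 95% interval -0.49 to 2.07), Cr2 by 0.50 (95% interval -0.99 to 2.0), Cd79b by 0.33 (95% interval -0.70 to 1.36) and Fcer2a by 0.24 (95% interval -1.13 to 1.62). Cd79a was at 0.04 (95% interval -0.96 to 1.05) and Pax5 at 0.05 (95% interval -0.29 to 0.39). HFC was the higher at 6 of 10 time points for Cd79b, Ms4a1, Cr2 and Fcer2a. Their exact two-sided sign-flip p-values were 0.547, 0.25, 0.498 and 0.777, where 10 pairs allow no less than 0.00195.

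The difference changed sign between time points for every member. For Fcer2a it ran from -4.57 at D6 to 3.66 at W12, for Cr2 from -4.53 at D6 to 4.11 at W12, and for Cd79b from -2.77 at D6 to 3.19 at W12. On LFC W12, Fcer2a (-7.38) and Cr2 (-8.29) were not well above background, and neither was Cr2 on HFC D6 (-5.89). HFC W12 had 4850 outlier spots of 43803. Over W3 to W18 alone, Fcer2a was higher in HFC by 1.31 (SE 0.58, unadjusted p = 0.0341, limma adjusted p = 0.999), Cr2 by 1.44 and Ms4a1 by 1.32. Fcer2a and Cr2 were not well above background on LFC at W3, W9, W12 and W18, so the size of their differences rests on levels near background. Of 33709 probes in that fit none passed (0%), with 1075 at an unadjusted p under 0.05.

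**Figure D5:**
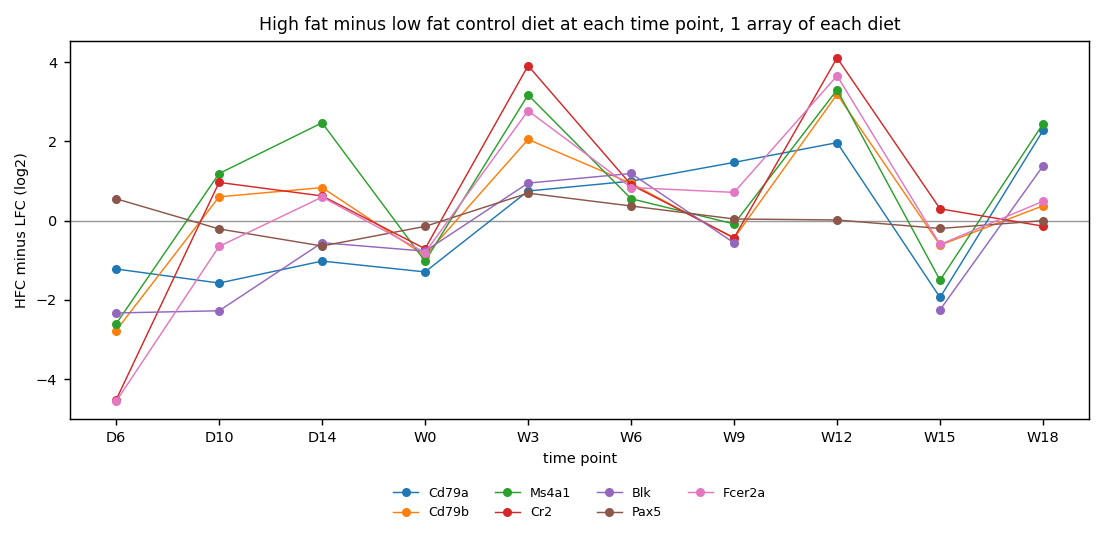
HFC minus LFC (y axis, log2) at each time point (x axis) for the 7 genes, from 1 array of each diet, with no point for Blk at W12. Cr2 and Fcer2a have their lowest values at D6, -4.53 and -4.57, and their highest at W12, 4.11 and 3.66. Neither gene was well above background on LFC W12, and Cr2 was not on HFC D6.

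The formulation diets were compared with HFC over W3 to W18, and the 3 comparisons share the HFC arrays. HF75 was scanned on another day than HFC at W3, W6, W9 and W18, HF20 at W3, W9 and W18, and HF5 at W9. At those weeks dose and scan day cannot be told apart. None of 33709 probes passed at any dose (0%), with 1563, 594 and 678 at an unadjusted p under 0.05 for HF5, HF20 and HF75. No member passed. Ms4a1 differed by -0.06 at HF5, 0.08 at HF20 and -0.84 at HF75 (95% interval -2.36 to 0.69 at HF75). Cd79b differed by 0.07, -0.01 and -0.54, and Fcer2a by -0.25, -0.45 and -0.61 (95% interval -1.82 to 0.60 at HF75). Cd79a was at -0.23, 0.06 and 0.09. The spread over weeks was wide: for Ms4a1, HF5 minus HFC was 4.48 at W9 and -2.45 at W12. Of the 19 other B cell genes none passed at any dose, and the median difference at HF75 was -0.59 beside 0.02 over all probes tested. At the same dose the median was -0.16 over the 7 members, -0.77 over 12 T cell genes (none above 0), -0.56 over 10 class II genes and -0.44 over 12 macrophage genes, and none of these genes passed.

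The genes most like the members were taken as those with the highest Pearson r to the mean level of the 7 genes over 38 arrays, among 28506 probes of other genes well above background on at least 5 arrays. The leading 10 had r from 0.90 to 0.96. They were Bfsp2 (0.96), Bcl11a (0.93), 5830411N06Rik (0.93), Cd22 (0.93), Treml2 (0.92), H2-Oa (0.92), Cd37 (0.92), LOC100047904 (0.91), Ccr6 (0.90) and Faim3 (0.90). Bfsp2 encodes a beaded filament protein of the eye lens. Its r was 0.93 over the 33 arrays without W6, and it was higher at W6 by 4.02 (limma adjusted p = 0.00506). For the other genes named, r without W6 was lower, from 0.70 for Faim3 to 0.88 for 5830411N06Rik. LOC100047904 is described in the files as similar to Treml2.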

How the data were processed

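RNA of epididymal stromal vascular cells was hybridised to 1-colour Agilent mouse arrays. Per the file headers, the deposited scanner files hold intensity values of Feature Extraction 10.5.1.1, while the submitters' processing notes name version 9.1; the processed signal is background-subtracted and not normalised between arrays. The deposited series table holds log2 ratios, made by the authors in GeneSpring GX, of each array to LFC at its time point, and was used as an alternative only. Outlier spots were left out, and each log2 signal was centred on the 75th percentile of its array. Probes well above background on at least 0.5 of the arrays of a diet (for W6, of a week) were fitted with limma 3.58.1 in R 4.3.3, with Benjamini-Hochberg adjustment and a threshold of 0.05. Time point was a block (for W6, a random block, consensus correlation 0.21). The fits were tested on simulated data. All 8 member probes and the genes of fixed lists that passed were named, with up to 3 others of a list. List genes were matched by gene name or through RefSeq accessions (28136 probes matched). Of the list genes, 2 are not reported here and were left out of their lists. Members and lists were chosen with earlier results of these data known. The number of arrays limits the precision. The HF5 and HF20 arrays of W15 and W18 carry the other dose in their diet label and were grouped by title.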

Additional observations from a re-analysis of the deposited data

Results flagged for a closer look

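In each diet, the array farthest from the rest was looked for with Dixon's criterion for each of the 7 genes, by its brightest probe. Of 35 groups of 6 to 10 arrays, 7 had an array beyond the critical value, and all 7 were W6 arrays at the high end. Chance gives about 1 in 20 for independent groups, but the genes share arrays and W6 was set apart with these levels known, so the count restates the W6 levels and is no independent support. In HFC, W6 stood apart for Cd79b (4.70, with the next array at 1.26), Cr2 (0.68, next -4.0) and Fcer2a (1.68, next -3.73). In HF20, W6 stood apart for Cr2 (-0.27, next -5.23) and Fcer2a (0.63, next -4.88). In HF75, W6 stood apart for Cd79a (-3.56, next -5.02) and Fcer2a (-0.48, next -5.07). The next array for Cd79a was the dim HF75 of W3, where Cd79a was not well above background. In LFC and HF5 no array met the criterion.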

How the results depend on the processing

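The W6 calls depended on the processing in number more than in direction. Against 1417 probes and 5 member probes, normexp background correction gave 309 and 2 (Cd79b and Ms4a1), probes well above background on every array gave 650 and 1 (Cd79b, the sole member left to test), the use of all 38 arrays 796 and 3, and LFC and HFC at all time points without LFC D6 246 and 3, the last chosen after seeing the data. No filter gave 3 members and outlier spots kept gave 3. Other alternatives gave more members. Quantile scaling gave 1761 probes and 7 members, and scan day as the random block 2137 and 7. Leaving out the dimmest array gave 1926 and 6. Leaving out HF5 and HF20 of W9, chosen after seeing the data, gave 1444 and 6. Without the random block for time point the counts were 6697 probes, the most of any alternative, and 7 members. Leaving out 1 week or 1 W6 array gave 672 to 2765 probes and 3 to 7 members. The lowest of 3 members came without W3, W15, W18, LFC W6, HFC W6 or HF5 W6, and the highest without HF20 W6. Cd79b passed under all 21 alternatives, Fcer2a and the first Cr2 probe under 19 of 20, the exception being normexp, and Blk and Pax5 under 7 of 20. Cd79a and Ms4a1 passed under 7 of 20. Adjusted p-values (limma) over the alternatives ran from 4.27e-09 to 0.0818 for Fcer2a and from 0.000694 to 0.954 for Blk. The second Cr2 probe reversed under normexp (-0.33).

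Diet and dose gave no call under any alternative, and the signs of their small differences changed. HFC minus LFC became -0.083 for Cd79a, -0.086 for Pax5 and -0.052 for Fcer2a with quantile scaling, -0.72 for Cd79a, -0.61 for Cr2, -0.77 for Pax5 and -0.59 for Fcer2a with normexp, -0.21 for Cd79a without the dimmest LFC or HFC array, and -0.055 for Pax5 without D6 and W6, the last chosen after seeing the data. Leaving out 1 time point gave -0.21 to 0.26 for Cd79a, -0.023 to 0.13 for Pax5 and -0.13 to 0.78 for Fcer2a. The mean of the doses minus HFC became 0.30 for Cd79a, 0.46 and 0.030 for the Cr2 probes and 0.38 for Fcer2a with normexp, -0.048 for Blk and -0.21 for Pax5 with scan day as a block, and -0.10 for Pax5 without the dimmest array. Leaving out 1 week gave -0.27 to 0.24 for Cd79a, -0.74 to 0.23 for Cd79b, -1.05 to 0.21 for Ms4a1, -0.87 to 0.15 for Cr2, -0.052 to 1.03 for Blk and -0.28 to 0.25 for Pax5. The cause of these changes was not tested. Signal over background limits the values of the member probes near background (Cd79a, Blk, Pax5 and the second Cr2 probe). In the weeks from W3 on other than W6, it also limits those of Fcer2a and the first Cr2 probe. There, Fcer2a cleared background in 15 of 25 cases and the first Cr2 probe in 13, beside 16 for Cd79a.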
